A study of Capra hircus with 10 samples.

Results

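The transcripts described here are the TUCPs (transcripts of uncertain coding potential) of the goat ovary, that is, transcripts assembled from the RNA-seq reads that are not annotated as mRNAs and that the study, after coding-potential software, did not place among its candidate non-coding RNAs. The members were all transcripts typed as TUCP in the deposited expression table, apart from 4 that are not reported here, which left 1450 of 1454 TUCPs among 50146 transcripts of all classes. They were compared between whole ovaries of Anhui white goats (Capra hircus) collected at a slaughterhouse, 5 taken during the luteal phase and 5 during the follicular phase. No treatment is described for either group. The age of the goats, and whether each ovary came from a different goat, is not given in the sources used here, so p-values measure the spread between these ovaries. Expression was given as FPKM, the number of mapped fragments corrected for the length of the transcript and the size of the library. No fragment counts were used, which leaves depth and counting error unknown. Positions and sequences of the TUCPs were not analysed here, and none are shown.

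TUCPs are set apart because an assembled transcript can carry a short open reading frame or resemble a known protein domain without being an annotated gene. Such a transcript may act as RNA, like a long non-coding RNA, or be translated into a peptide, and expression values alone do not separate the possibilities. In the ovary, the luteal phase is marked by the corpus luteum, the progesterone-secreting tissue that forms from an ovulated follicle, and the follicular phase by growing follicles whose granulosa cells make estrogen.

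The phase labels were checked against cell type markers before the TUCPs were compared. Of the corpus luteum markers, 6 of 6 tested genes rose in the luteal phase, and their summed FPKM was 5905 to 8076 in luteal ovaries and 131 to 183 in follicular ovaries. Endothelial markers (3 of 3) also rose, with sums of 140 to 177 against 57.4 to 64.8. In the follicular phase 2 of 6 granulosa markers, 4 of 6 oocyte markers and the theca marker INSL3 were higher. Over all 15359 genes tested 15.9% were luteal higher and 27.8% follicular higher, so the granulosa count is near the share of all genes. The leukocyte markers gave no call in 2 tested, 1 of 4 stroma markers (LUM) rose in the luteal phase, and ALAS2, the blood marker in the table, was at or near 0 throughout. Whether a phase difference of a TUCP comes from more cells of a type or more RNA per cell cannot be told apart in whole ovaries, and the part of these tissue differences in the TUCP results was not tested.

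Most TUCPs were scarce and a few were among the abundant RNAs of the ovary. The median of the mean FPKM over the 10 ovaries was 0.320, with 10% of TUCPs below 0.0833 and 10% above 1.57. A mean FPKM of at least 1 was found for 217 TUCPs, of at least 10 for 47 and of at least 100 for 11. In 349 TUCPs (24.1%) no ovary reached an FPKM of 0.5. The single most abundant TUCP held 20.0% of the FPKM of all members, the 5 most abundant held 59.5%, the 10 most abundant 74.7% and the 100 most abundant 92.6%.

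TUCP_000031, at locus XLOC_007275, was the most abundant TUCP and ranked 55 of all transcripts by mean FPKM. Its FPKM was 1063, 2682, 1219, 2357 and 1198 in luteal ovaries 1 to 5 and 1492, 1245, 1037, 1442 and 1503 in follicular ovaries 1 to 5. Luteal ovaries 2 and 4 lay above every other ovary, the phases overlapped, and limma gave no call (log2 fold change 0.25 ± 0.27 (SE), Benjamini-Hochberg adjusted p = 0.571). All fold changes are luteal minus follicular on log2(FPKM + 0.1), which understates the change of scarce transcripts, and a call is an adjusted p under 0.05. TUCP_001186 (XLOC_210256), ranked 80, was at 1103 to 1489 in luteal ovaries and 709 to 1172 in follicular ovaries and was not called (log2 fold change 0.36, adjusted p = 0.140, and 0.0347 after quantile normalization).

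Of the 10 most abundant TUCPs, 5 were higher in luteal ovaries and 1 in follicular ovaries. Over all transcripts tested, 7.47% were luteal higher and 9.82% follicular higher. Of all transcripts with a mean FPKM of at least 10, 35.2% were called. TUCP_000183 (XLOC_030962), ranked 102, had the tightest groups, with FPKM of 945, 1139, 933, 1158 and 1020 in the luteal ovaries and 687, 594, 584, 665 and 687 in the follicular ovaries. Every luteal ovary lay above every follicular ovary (log2 fold change 0.69 ± 0.09, limma adjusted p = 0.000593). TUCP_000155 (XLOC_025680) was at 601, 421, 887, 1189 and 963 in the luteal phase and at 492, 334, 363, 364 and 494 in the follicular phase. Luteal ovary 2 fell inside the follicular range, and the call (log2 fold change 0.92 ± 0.26, adjusted p = 0.0368) was lost under 9 of 19 alternatives, with adjusted p up to 0.0826, among them fits without luteal ovaries 3, 4 or 5 or follicular ovaries 2, 3 or 4.

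TUCP_000439, TUCP_000440 and TUCP_000441 belong to a single locus, XLOC_079351, and all 3 rose in the luteal phase. TUCP_000441 was nearly level among luteal ovaries at 573, 570, 563, 551 and 531, against 417, 229, 126, 269 and 160 in the follicular ovaries (log2 fold change 1.34 ± 0.27, adjusted p = 0.00752). TUCP_000439 was at 987, 583, 533, 685 and 1056 in the luteal phase, and at 9.44, 308, 16.8, 339 and 43.0 in the follicular phase. Its follicular ovaries were far apart, with ovaries 2 and 4 well above the other 3, but none reached the luteal range (log2 fold change 3.64 ± 0.95, adjusted p = 0.0254, and 0.0118 to 0.0578 over the alternatives). That call was lost without follicular ovary 3 or 5 or luteal ovary 1, 4 or 5, at log2 fold changes between 3.19 and 3.67. TUCP_000440 ran from 73.1 to 291 in luteal ovaries and from 21.1 to 153 in follicular ovaries, and its call was the weakest of the 3 (log2 fold change 1.91 ± 0.59, adjusted p = 0.0491). It was lost under 13 of 19 alternatives, with adjusted p up to 0.103, including the fits without follicular ovary 1, 3 or 5 or luteal ovary 1, 2, 3 or 5.

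TUCP_001109 (XLOC_193258) was the only follicular-higher member among the 10 most abundant. It was at 126, 97.4, 86.6, 42.3 and 111 in the luteal ovaries and at 230, 198, 151, 198 and 233 in the follicular ovaries. The groups were apart, with luteal ovary 4 the lowest of all (log2 fold change -1.20 ± 0.26, limma adjusted p = 0.0122). The last 2 of the 10, TUCP_001376 and TUCP_001296, were listed at a high FPKM in some ovaries and at 0 in others of the same phase, and are described with their loci.

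**Figure D1:**
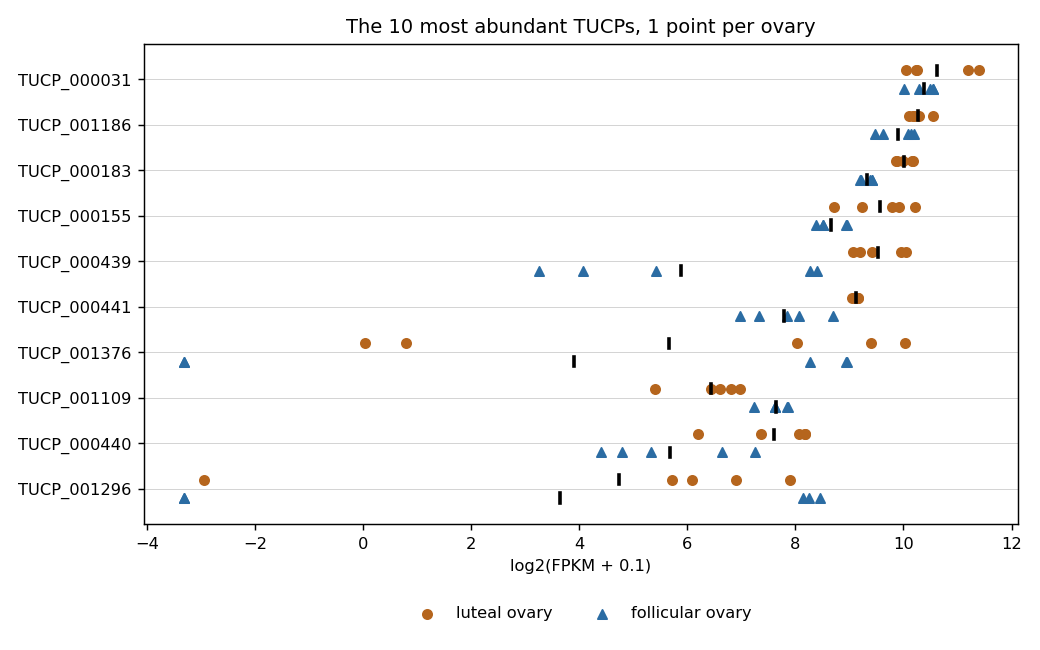
The 10 most abundant TUCPs are plotted as log2(FPKM + 0.1) with 1 point per ovary (brown circles luteal, blue triangles follicular) and a black tick at the mean of each group of 5. TUCP_000183, TUCP_000439, TUCP_000441 and TUCP_001109 have groups that do not overlap, whereas TUCP_001376 and TUCP_001296 spread from near the value of a listed 0 to the top of the axis within a phase.

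TUCPs took a larger part of all FPKM in luteal than in follicular ovaries, and little of this difference was left without the 10 most abundant members. Their share of the FPKM of all transcripts was 1.60%, 1.81%, 1.61%, 1.89% and 2.30% in luteal ovaries 1 to 5 and 1.50%, 1.10%, 1.16%, 1.25% and 1.29% in follicular ovaries 1 to 5. The means were 1.84 ± 0.283% and 1.26 ± 0.153% (SD, n = 5 each; two-sided exact permutation p = 0.00794, the lowest value possible with 5 against 5). Without the 10 most abundant members the shares were 0.398 ± 0.120% and 0.387 ± 0.0453% (exact permutation p = 0.857). The loci of TUCP_000183, TUCP_000155 and TUCP_000439, chosen because they were luteal higher, held 0.711 ± 0.0965% of the summed FPKM in luteal ovaries and 0.297 ± 0.0502% in follicular ovaries. Without them the shares were 1.13 ± 0.219% and 0.963 ± 0.136%, given with no test since that choice lowers the luteal excess by itself.

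The number of TUCPs detected did not follow the share. An FPKM above 0 was listed for 1161 to 1200 TUCPs in luteal ovaries and for 1172 to 1207 in follicular ovaries (1181 ± 15.0 against 1191 ± 16.9; SD, n = 5 each; exact permutation p = 0.341). At an FPKM of at least 0.5 the numbers were 404 ± 25.3 and 483 ± 79.6 (exact permutation p = 0.103). At this higher level follicular ovaries 1, 3 and 5 had 530, 533 and 557 TUCPs, while follicular ovaries 2 and 4 had 381 and 414, within the luteal range of 367 to 438. These p-values do not show that the phases detect equal numbers.

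**Figure D2:**
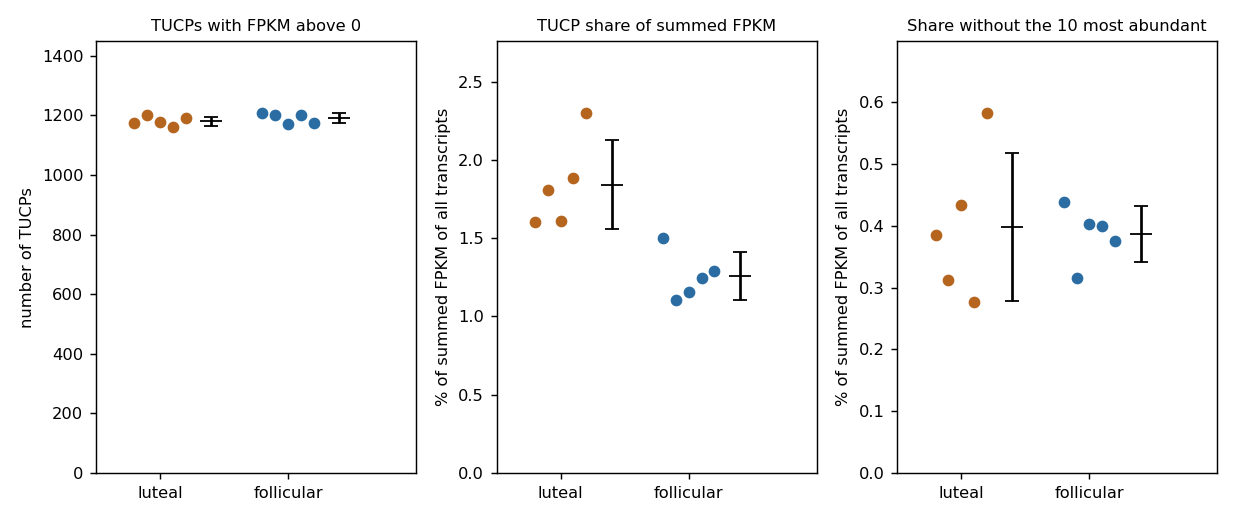
The 3 panels give, for each ovary, the number of TUCPs with an FPKM above 0, the TUCP share of the summed FPKM of all transcripts in percent, and that share without the 10 most abundant TUCPs. Points are ovaries and black bars are the mean ± SD of 5. The phases are apart in the middle panel (lowest luteal ovary 1.60%, highest follicular ovary 1.50%) and overlap in the outer panels.

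TUCPs stood between the other transcript classes in level and detection. The median FPKM over all TUCPs of an ovary was 0.232 to 0.373, against 0 to 0.127 for the lincRNAs that the study assembled, 0.0887 to 0.165 for its antisense lncRNAs, 0.758 to 0.914 for annotated lncRNAs and 0.436 to 0.555 for mRNA transcripts. TUCPs were above lincRNAs and antisense lncRNAs in 10 of 10 ovaries and below annotated lncRNAs and mRNA in 10 of 10. Each of these 4 comparisons had a two-sided exact sign p of 0.00195, and of 0.00208 after Benjamini-Hochberg adjustment over the 16 class comparisons made. TUCPs with an FPKM above 0 made up 80.1% to 83.2% of members in each ovary, above the 75.0% to 80.6% of mRNA transcripts in 10 of 10 ovaries, but only 11.7% to 16.1% of TUCPs reached an FPKM of 1, against 39.9% to 42.3% of mRNA transcripts. Against antisense lncRNAs, the TUCP share of summed FPKM depended on the phase. In each of the 5 luteal ovaries TUCPs had the higher share (1.60% to 2.30%, antisense lncRNAs 0.715% to 1.06%), and in each of the 5 follicular ovaries the lower share (1.10% to 1.50%, antisense lncRNAs 1.31% to 3.57%), so the exact sign test over the 10 ovaries (p = 1) did not capture the split.

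Detection was broad for most members. In all 10 ovaries 804 TUCPs (55.4%) had an FPKM above 0, and 41 were above 0 in a single ovary. A TUCP was counted as found in 1 phase when all 5 ovaries of that phase had an FPKM of at least 0.1 and all 5 of the other were listed at 0. This held for 3 of 1450 TUCPs in luteal ovaries and for 0 in follicular ovaries. Over all 50146 transcripts it held for 28 (0.0558%) and 17 (0.0339%). Among the 974 antisense lncRNAs the counts were 3 and 0, and among the 2779 lincRNAs 5 and 5. With any value above 0 in place of 0.1, 10 of 1450 TUCPs were found in 5 luteal and no follicular ovaries. Of all transcripts 52 (0.104%) met this looser rule. In 5 follicular and no luteal ovaries 2 TUCPs were found, beside 67 (0.134%) of all transcripts. No limma test was tied to these counts, and the luteal count was 1 at a minimum FPKM of 0.5 and 8 without luteal ovary 3, 5 without luteal ovary 1 and 6 without follicular ovary 2. The follicular count was 2 without luteal ovary 2 or follicular ovary 4 and 1 without follicular ovary 1 or 3.

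The 3 luteal-only TUCPs were chosen for this pattern, so their levels are a description with no test. TUCP_000055 (XLOC_010516) was the most even of them, at 1.83, 1.95, 1.13, 1.45 and 1.28 in the luteal ovaries and listed at 0 in the 5 follicular ovaries. TUCP_001029 was at 0.112, 0.176, 0.488, 0.937 and 1.01 in the luteal ovaries and also listed at 0 in the others. TUCP_000372 (XLOC_067777) was at 0.237, 0.102, 0.140, 4.17 and 2.52, so that luteal ovaries 4 and 5 carried most of its signal. Its 5 follicular values were listed at 0 as well. A listed 0 is an estimate and does not show that a transcript was absent.

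The phases were compared for every transcript that reached 0.1 FPKM in 5 or more of the 10 ovaries, which kept 1077 TUCPs (74.3%) and left 373 untested. Of the tested TUCPs limma called 185 (17.2%), beside 17.3% of all 32842 transcripts tested. Higher in the luteal phase were 95 (8.82%, beside 7.47% of all transcripts), and higher in the follicular phase 90 (8.36%, beside 9.82%). The 2 shares were not equally near under every setting, at 7.74% and 12.5% without luteal ovary 4, 8.21% and 13.2% without luteal ovary 5, and 19.7% and 15.5% with eBayes without a trend. A TUCP below 0.1 FPKM in all ovaries of a phase was tested only through the other phase, so the filter fixed its direction. This held for 29 of the 95 luteal-higher calls (31 such TUCPs were tested) and for 1 of the 90 follicular-higher calls. With at most 1 ovary of the other phase at 0.1 FPKM or more, the numbers were 40 and 13. Among the calls, 130 TUCPs (12.1%, beside 13.2% of all transcripts) also had ranges that did not overlap between the phases, 80 of them luteal higher and 50 follicular higher. At an unadjusted p under 0.05 there were 362 TUCPs (33.6%, beside 31.6% of all transcripts).

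The log2 fold changes of the luteal-higher calls ran from 0.45 to 4.69 with a median of 1.69, and 36 of 95 were at least 2. Follicular-higher calls ran from -0.35 to -2.55 with a median of -1.17, and 7 of 90 were at least 2 in size. The TUCPs tested through a single phase, which are at or near 0 in the other, carried much of this gap in size. Without them the medians were 1.38 over 66 luteal-higher calls and -1.16 over 89 follicular-higher calls, and 15 and 7 were at least 2 in size. This removal was chosen after the data were seen, and the difference in size was not tested. The median over all tested TUCPs was -0.32, beside -0.15 for all transcripts tested. After each ovary was centred on the same median log value, these medians were -0.22 and -0.05 and the calls 100 luteal and 54 follicular. Quantile normalization gave 105 and 50 and conversion to TPM (each ovary scaled to the same total) gave 95 and 40, so the balance of the directions moved with the scaling. The luteal share of all called transcripts moved too, from 43.2% to 57.7% on the common median, 48.9% after quantile normalization and 59.2% as TPM. The number of calls was 121, 107, 79 and 83 without luteal ovaries 1, 2, 4 and 5 and 123 without follicular ovary 3.

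**Figure D3:**
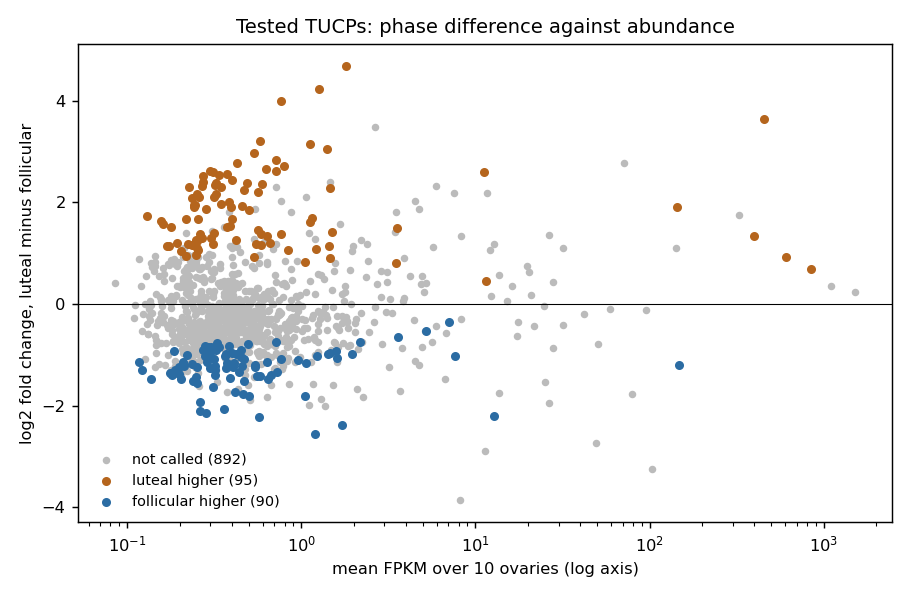
Each point is a tested TUCP, with the mean FPKM over 10 ovaries on a log axis and the log2 fold change (luteal minus follicular) on the vertical axis. Colours mark the 95 luteal-higher calls (brown), the 90 follicular-higher calls (blue) and uncalled TUCPs (grey). Most calls lie at a mean FPKM below 1, and several grey points at a mean above 10 lie far from 0.

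The share of TUCPs called changed little with their level. At a mean FPKM below 0.5, 17.7% of tested TUCPs were called, beside 8.60% of all transcripts at that level. At a mean of at least 10, 9 of 44 tested TUCPs (20.5%) were called, beside 35.2% of all transcripts. The spread between ovaries of the same phase differed between these levels. The median within-phase SD of log2(FPKM + 0.1) was 0.56 for TUCPs below 0.5 FPKM (0.68 for all transcripts there) and 1.35 for TUCPs of at least 10 FPKM (0.19 for all transcripts there). Most transcripts at this higher level were mRNAs, with 5844 beside 99 annotated lncRNAs, 6 antisense lncRNAs and 5 lincRNAs. Abundant TUCPs therefore varied more within a phase than a set made up mostly of mRNAs. The median SD was 1.53 for the 36 abundant TUCPs at loci with several transcripts. For the 8 alone at their locus it was 0.47, nearer to the 0.19 of all transcripts but above it. Whether other abundant transcripts at shared loci vary as much was not tested.

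The 8 largest luteal-higher changes with groups apart came from 6 loci. Of these 8, TUCP_000454, TUCP_000451, TUCP_000118, TUCP_000055 and TUCP_000056 had no follicular value of 0.1 FPKM or more, so they were tested only through the luteal ovaries and no p is given for them. Their fold changes also depend on the pseudocount, since the follicular values are at or near 0. With a pseudocount of 1 and of 0.01, the log2 fold change was 1.90 and 7.60 for TUCP_000454, 0.98 and 6.12 for TUCP_000451, and 0.93 and 4.87 for TUCP_000056. For TUCP_000118 it was 1.71 with a pseudocount of 1 against 4.24 at the pseudocount of 0.1 used here. In the same order it was 1.35 and 4.62 for TUCP_000751 and 1.40 and 3.75 for TUCP_000240, while TUCP_000439, with follicular values well above 0, stayed at 3.60 and 3.65. TUCP_000454 (XLOC_082919) was at 3.21, 10.2, 1.07, 1.65 and 1.88 in the luteal ovaries and at 0, 0, 0, 0.0170 and 0.00479 in the follicular ovaries. Luteal ovary 2 stood well above the other luteal ovaries, and all follicular values were at or near 0 (log2 fold change 4.69 ± 0.51). TUCP_000451, from the same locus, was at 1.97, 2.54, 0.552, 0.381 and 0.341 and then at 0 in all follicular ovaries but ovary 2, at 0.0136 (3.21 ± 0.51).

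TUCP_000118 (XLOC_018220) was at 2.28, 4.54, 1.20, 2.31 and 2.20 in the luteal phase and at 0.0342, 0.0484, 0.0143, 0.0207 and 0.0212 in the follicular phase. It had a value above 0 in all 10 ovaries and groups far apart (log2 fold change 4.24 ± 0.32). TUCP_000751 (XLOC_135210) was at 2.54, 2.12, 2.11, 2.06 and 1.42 in the luteal ovaries and at 0.328, 0, 0, 0.405 and 0.257 in the follicular ovaries (3.15 ± 0.50, limma adjusted p = 0.00227). The study placed both near apolipoprotein genes, as given with the neighbouring genes. TUCP_000240 was at 1.06, 2.58, 6.95, 0.821 and 1.69 against 0.590, 0.0807, 0.0935, 0.108 and 0.0825, with luteal ovary 3 and follicular ovary 1 standing above their groups (3.06 ± 0.59, adjusted p = 0.00620). TUCP_000056, from the locus of TUCP_000055, was at 0.626 to 1.75 in luteal ovaries and 0 to 0.0713 in follicular ovaries (2.97 ± 0.35). TUCP_000055 and TUCP_000439 were the other members of this group of 8.

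The 8 largest follicular-higher changes with groups apart came from 8 loci. For TUCP_000124, TUCP_000963 and TUCP_000398 only 1 luteal ovary reached 0.1 FPKM, so their testing rested on the follicular ovaries and no p is given. TUCP_000263 (XLOC_045296) was at 0.577, 0.172, 0.277, 0.378 and 1.09 in the luteal ovaries and at 2.24, 3.12, 2.04, 1.46 and 5.71 in the follicular ovaries. Follicular ovary 5 was the highest and the groups were apart (log2 fold change -2.37 ± 0.46, limma adjusted p = 0.00607). TUCP_000124 (XLOC_019943) was at 0.333 to 0.586 in the follicular phase and, in the luteal phase, at 0.232 in ovary 1, 0.0206 in ovary 3 and 0 in the other 3 (-2.10 ± 0.36). TUCP_000344 (XLOC_062201) was at 0.858, 0.752, 0.900, 0.694 and 0.858 in the follicular ovaries, a narrow range, and at 0 to 0.282 in the luteal ovaries (-1.82 ± 0.37, adjusted p = 0.00766, and 0.0579 with a pseudocount of 0.01).

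TUCP_001116 (XLOC_194240) had the narrowest gap between the groups relative to its level, with 1.36 in luteal ovary 3 and 1.38 in the lowest follicular ovary. Its other luteal ovaries were at 0.126 to 0.482 and its follicular ovaries reached 1.84 (log2 fold change -1.81 ± 0.45, adjusted p = 0.0203, and 0.0508 without luteal ovary 4). TUCP_001259 (XLOC_221210) was at 0.0436 to 0.231 against 0.343 to 0.962 (-1.72 ± 0.33, adjusted p = 0.00607), and TUCP_000963 (XLOC_170588) at 0 to 0.105 against 0.119 to 0.817 (-1.92 ± 0.47). TUCP_000398 (XLOC_070706) was at 0.0334 to 0.143 against 0.180 to 0.827 (-1.54 ± 0.36). TUCP_001300 (XLOC_224475) was at 0.0893 to 0.184 against 0.277 to 2.30, with follicular ovary 2 the highest. Its call (-1.52 ± 0.46, adjusted p = 0.0474) was lost under 14 of 18 alternatives, among them the common median, at adjusted p up to 0.121, and under the fits without each of the 5 luteal ovaries or follicular ovary 1, 3 or 4.

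**Figure D4:**
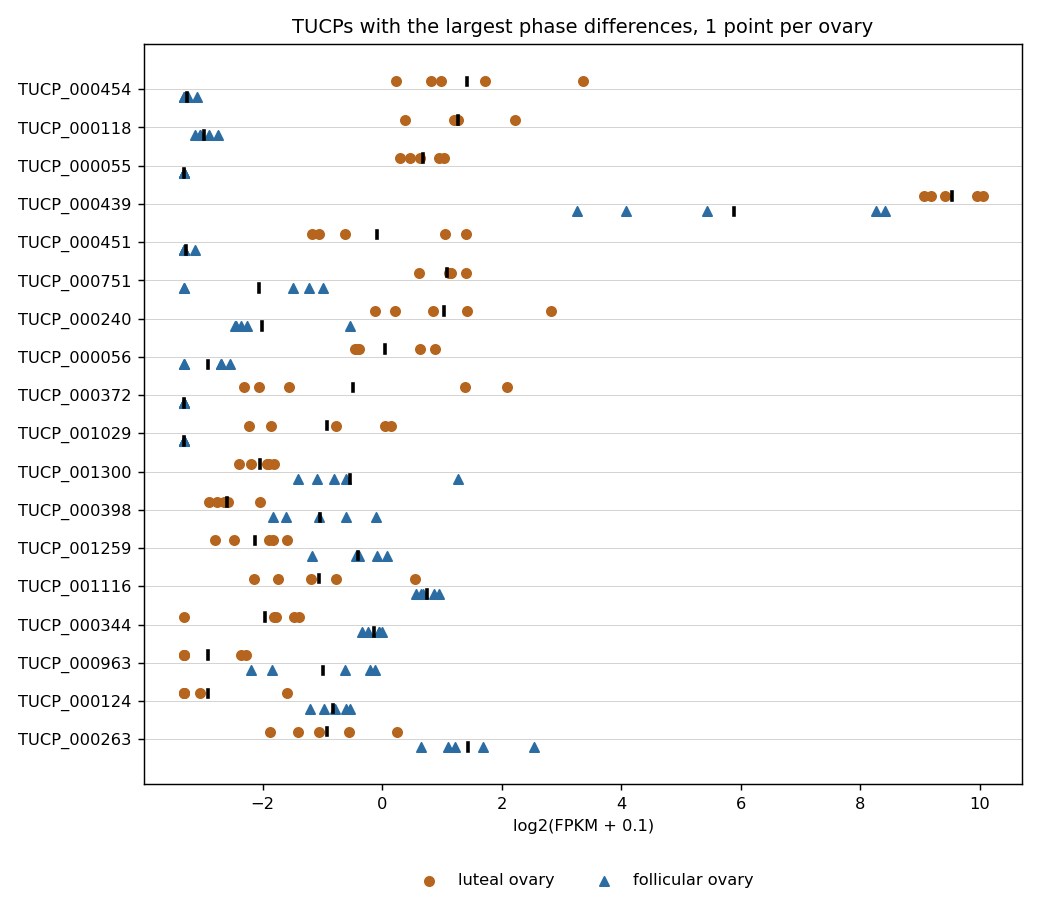
TUCPs with the largest fold changes in each direction, and those found only in the luteal phase, are plotted as log2(FPKM + 0.1) with 1 point per ovary (brown circles luteal, blue triangles follicular) and black ticks at the group means. Luteal-higher TUCPs are at the top, most of them with follicular points at the left edge, where an FPKM of 0 falls. Follicular-higher TUCPs are at the bottom, with the groups closer together.

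Many TUCPs share a locus, the unit in which the assembly groups overlapping transcripts. Over the 1024 loci analysed, 818 held 1 TUCP and 206 held several, together 623 TUCPs, with up to 18 in XLOC_015642. An lncRNA assembled by the study was also present at 140 loci. TUCPs of a locus can share reads, so how a fragment was divided between them is uncertain, and they are not independent of each other. The FPKM of all transcripts of a locus was therefore summed as well, a step added after the first results were seen.

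Summing a locus reduced the spread between ovaries. In 120 of the 140 loci with at least 2 tested TUCPs, the within-phase SD of the locus sum was lower than the median SD of its TUCPs. The median SD was 0.518 for the sums and 0.770 for the TUCPs. Among TUCPs with a mean FPKM of at least 10, the 8 that were the only transcript of their locus had a median within-phase SD of 0.47, and the 36 tested ones at loci with several transcripts had 1.53. Of all 47 TUCPs at this level, 14 were listed at 0 in some ovary, and 0 of these 14 were alone at their locus. Of the 843 TUCP loci tested as sums, 293 (34.8%) were called, beside 40.6% of all loci and genes. Luteal higher were 100 (11.9%, beside 14.7%) and follicular higher 193 (22.9%, beside 25.9%), and 13 and 1 of these were tested through that phase alone. Without luteal ovary 4 there were 195.

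At XLOC_228694 the abundant transcript differed between ovaries of a phase. TUCP_001376 was listed at 0.923, 263, 1.64, 678 and 1038 in the luteal ovaries and at 495, 488, 0, 310 and 0 in the follicular ovaries. Where it was near 0, another transcript of the locus was often high, as TUCP_001374 was at 373 in luteal ovary 3 and at 0 in the other 9 ovaries, and TUCP_001375 at 111 in follicular ovary 3 and below 1 elsewhere. The fold change of TUCP_001376 (log2 1.76 ± 3.22, adjusted p = 0.755) was no call and turned to -0.050 without follicular ovary 3 or 5. The locus sum was 375 to 1508 and 132 to 2014, and was not called (adjusted p = 0.747).

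XLOC_224475 held 8 TUCPs and 6 lncRNAs with a like pattern. TUCP_001296 was at 120, 240, 0.0309, 52.8 and 67.8 in the luteal ovaries and at 284, 0, 304, 0 and 352 in the follicular ovaries. TUCP_001299 was at 64.4, 48.9, 277, 3.75 and 0 and at 0, 0, 0, 210 and 110, so that it was highest in the luteal ovary where TUCP_001296 was nearly 0. TUCP_001297 and TUCP_001303 were steadier, at 7.58 to 38.9 and 10.3 to 46.9 over all ovaries. Neither TUCP_001296 (log2 fold change 1.10, adjusted p = 0.841) nor TUCP_001299 (2.77, adjusted p = 0.559) was called. The fold change of TUCP_001296 turned to -0.64 without follicular ovary 2 or 4. The locus sum ran from 152 to 478 in luteal ovaries and from 105 to 754 in follicular ovaries (log2 fold change -0.20, adjusted p = 0.770).

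At XLOC_210256 the sum was much steadier than TUCP_001185 and somewhat steadier than TUCP_001186. TUCP_001185 was at 268 in luteal ovary 1, 233 in follicular ovary 2 and 225 in follicular ovary 4, and at 0 to 43.1 in the other 7 ovaries. TUCP_001186 was lowest in follicular ovaries 2 and 4, at 709 and 789, where TUCP_001185 was high. The sum was 1163 to 1532 in the luteal ovaries and 941 to 1173 in the follicular ovaries (log2 fold change 0.27 ± 0.11, adjusted p = 0.0723). The within-phase SD was 0.15 for the sum, 0.26 for TUCP_001186, which made up most of it, and 4.84 for TUCP_001185. At XLOC_079351, described above, the sum was 1830, 1444, 1259, 1309 and 1877 in the luteal ovaries and 467, 690, 164, 823 and 231 in the follicular ovaries, with groups apart (log2 fold change 1.93 ± 0.39, adjusted p = 0.00289). TUCP_000438, the fourth TUCP there, was at 114 in follicular ovary 4 and at 0 in the other 9.

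XLOC_010516 had the lowest adjusted p of the TUCP loci tested and held 15 TUCPs and 2 antisense lncRNAs. Its sum was 9.54, 7.21, 7.10, 8.17 and 8.80 in the luteal ovaries and 0.243, 0.171, 0.258, 0.298 and 0.194 in the follicular ovaries (log2 fold change 4.64 ± 0.15, limma adjusted p = 3.77e-09). The sum was nearly level within each phase while its TUCPs were not. TUCP_000047, for example, was at 2.00 in luteal ovary 1 and below 0.1 in every other ovary. Of its TUCPs 4 passed the filter, each through the luteal ovaries alone, which fixed their direction.

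Some other loci with several TUCPs were high in the luteal ovaries and near 0 in the follicular ovaries. XLOC_082919 summed to 2.38 to 15.0 in luteal ovaries and 0.0111 to 0.0631 in follicular ovaries (log2 fold change 5.27 ± 0.47), and XLOC_029851, with 6 TUCPs, to 1.41 to 5.89 and 0.00666 to 0.115 (4.59 ± 0.35). XLOC_067777, the locus of TUCP_000372, summed to 0.955 to 6.38 and 0.0259 to 0.162 (3.86 ± 0.49). At these 3 loci at most 1 follicular sum reached 0.1 FPKM, so their testing rested on the luteal ovaries and no p is given. In the follicular direction, XLOC_015642 with its 18 TUCPs summed to 1.97 to 6.80 and 5.55 to 13.0 (-1.14 ± 0.36, limma adjusted p = 0.0255), and 3 of its 10 tested TUCPs were called. Over the 15 loci with at least 2 called TUCPs, the called TUCPs were all luteal higher at 10 and all follicular higher at 5, with no locus holding both directions. The filter fixed the direction of 11 of the 34 called TUCPs at these loci.

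**Figure D5:**
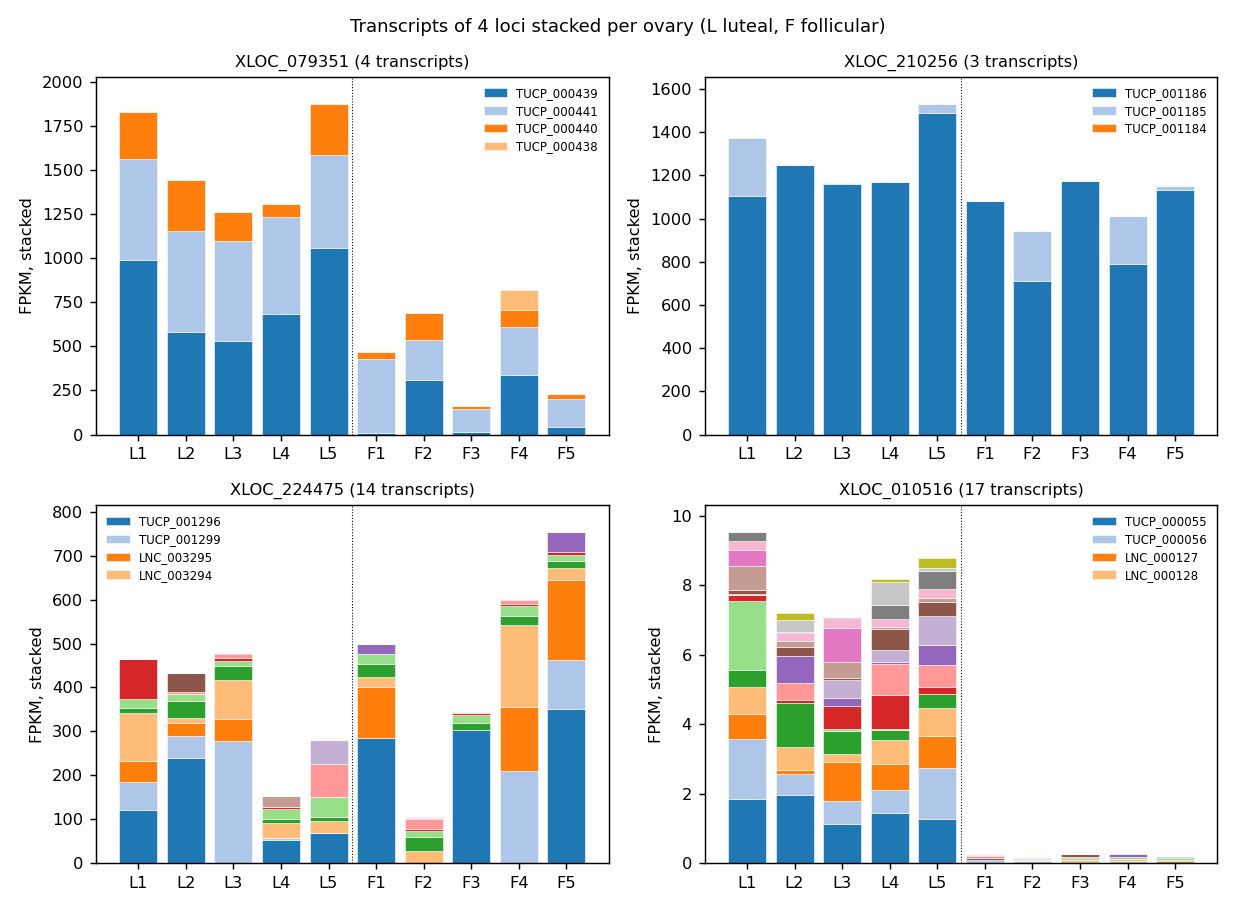
Stacked bars give the FPKM of every transcript of 4 loci in each ovary (L1 to L5 luteal, F1 to F5 follicular, on linear axes that start at 0), with the 4 most abundant transcripts or fewer named in each panel and the others in further colours. At XLOC_210256 the total stays between 941 and 1532 while TUCP_001185 appears in some ovaries only. At XLOC_224475 the colours change from ovary to ovary, and at XLOC_010516 follicular totals stay below 0.3.

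The study linked some TUCPs to genes within 100 kb (co-located) or with correlated expression (co-expressed). Its listed pairs for 9 of the TUCPs were compared here by gene, as mRNA FPKM summed by symbol. That list holds the reproductive transcripts and related genes that the study picked out, a part of all the genes it predicted. These pairs were chosen by the study on the same ovaries, so they are not independent evidence of a direction or of the share called. Of 19 co-located genes 16 were tested and 14 called, 5 luteal higher and 9 follicular higher, beside 43.7% of all 15359 genes (15.9% luteal, 27.8% follicular). All 14 called genes had the direction of their TUCP. The filter fixed this direction for LOC102179867, whose follicular values were all listed at 0, and the testing of APOA5 also rested on the luteal ovaries. As TPM, 9 of the co-located genes were called.

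Near TUCP_000751 the study placed APOA1, the main protein of high-density lipoprotein, which carries cholesterol. APOA1 was at 4437 ± 828 FPKM in luteal ovaries and 465 ± 109 in follicular ovaries (SD, n = 5 each; log2 fold change 3.26 ± 0.17, limma adjusted p = 2.15e-07). LOC102179867, from the same set, was at 140 ± 27.8 in the luteal phase and listed at 0 in the 5 follicular ovaries. CRLF3 rose less (0.35 ± 0.06, adjusted p = 0.000952), and APOA4 was too scarce to test. Near TUCP_000118, APOA5, a regulator of plasma triglyceride, was at 0.351 ± 0.137 and 0.0469 ± 0.0393 (1.61 ± 0.25). Only follicular ovary 5, at 0.109, reached 0.1 FPKM, so its testing rested on the luteal ovaries and no p is given.

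TUCP_000882 (XLOC_156066) was at 5.96, 4.08, 4.76, 5.02 and 6.16 in the luteal ovaries and at 1.93, 2.91, 1.96, 1.62 and 0.918 in the follicular ovaries. The groups were apart (log2 fold change 1.50 ± 0.26, limma adjusted p = 0.00374). Its co-located gene FUT1, a fucosyltransferase, also rose (0.81 ± 0.22, adjusted p = 0.0136). Its other co-located genes were too scarce to test, LOC102178850 at a mean FPKM of 0.0153 in luteal and 0.0950 in follicular ovaries and LOC102185028 at 0.0297 and 0.0126. Higher in the luteal phase was also COL15A1, a basement membrane collagen listed as co-expressed with it (3.20 ± 0.17, adjusted p = 2.11e-07).

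TUCP_000849 (XLOC_151644) was lower in the luteal phase. It was at 4.02, 3.57, 4.75, 4.42 and 4.35 in the luteal ovaries and at 6.60, 4.96, 6.44, 6.45 and 6.19 in the follicular ovaries, with groups apart (log2 fold change -0.53 ± 0.12, limma adjusted p = 0.0137, and 0.0705 as TPM). Of 7 co-located genes 6 were lower in the luteal phase, among them ZNF568 (-0.56 ± 0.16, adjusted p = 0.0150) and ZNF527 (-0.39 ± 0.09, adjusted p = 0.00375), while HKR1, also a zinc finger gene, was not called (-0.30, adjusted p = 0.224). Zinc finger proteins of this kind bind DNA, and many repress transcription. Of its 14 co-expressed genes 11 were lower in the luteal phase. CREM, a cyclic AMP-responsive transcription factor (1.92, adjusted p = 0.00107), and MLYCD, malonyl-CoA decarboxylase (0.46, adjusted p = 0.00178), rose against the direction of the TUCP.

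TUCP_001109, the abundant follicular-higher TUCP, had ZSCAN21, MCM7, ZNF3 and TAF6 as co-located genes. ZSCAN21, a zinc finger gene listed both as co-located and as co-expressed with it, was at 40.2 ± 4.21 FPKM in luteal ovaries and 63.8 ± 4.04 in follicular ovaries (log2 fold change -0.67 ± 0.08, limma adjusted p = 0.000114). MCM7, a subunit of the DNA replication helicase, was at 19.6 ± 1.36 and 31.4 ± 3.82 (-0.67 ± 0.09, adjusted p = 0.000184), and ZNF3 also fell (-0.54 ± 0.08, adjusted p = 0.000272). TAF6, a subunit of a general transcription factor, was at 5.35 ± 0.499 and 5.41 ± 0.401 and was not called (adjusted p = 0.894).

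The co-expressed genes of TUCP_000183 and TUCP_001362 included enzymes of cholesterol synthesis, which rose in the luteal phase. For TUCP_000183 the study listed HMGCS1, MSMO1, NSDHL, FDPS and EBP, all enzymes of the route from acetyl-CoA to cholesterol, the substrate of progesterone. HMGCS1 was at 670 ± 153 FPKM in luteal ovaries and 69.0 ± 12.7 in follicular ovaries (log2 fold change 3.26 ± 0.19, limma adjusted p = 3.88e-07), and MSMO1 at 819 ± 133 and 71.4 ± 12.1 (3.52 ± 0.15, adjusted p = 3.64e-08). The change of TUCP_000183 itself, 0.69, was much smaller. AIFM1, a mitochondrial flavoprotein, rose (1.40, adjusted p = 5.69e-06), and KDM1A, a histone demethylase, fell (-0.57, adjusted p = 6.46e-05), against the direction of TUCP_000183.

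TUCP_001362 (XLOC_227695) was at 4.69, 4.36, 2.84, 5.70 and 4.82 in the luteal ovaries and at 2.80, 2.50, 1.81, 2.63 and 2.64 in the follicular ovaries. Luteal ovary 3 came close to follicular ovary 1, but the groups were apart (log2 fold change 0.81 ± 0.20, limma adjusted p = 0.0185). Its 5 co-expressed genes, HMGCS1, MSMO1, NSDHL, SC5D and FDFT1, which act in the same route, all rose, by 1.93 (FDFT1) to 3.52 (MSMO1) on the log2 scale. TUCP_000118 was listed with TXNRD1, a thioredoxin reductase, which rose (0.69 ± 0.16, adjusted p = 0.00481).

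The other TUCPs with listed genes were TUCP_000249 and TUCP_001262. TUCP_000249 (XLOC_042559) was at 6.49, 6.04, 6.70, 6.18 and 5.39 in the luteal ovaries and at 7.53, 6.84, 9.15, 7.92 and 7.92 in the follicular ovaries. The groups were apart by little (log2 fold change -0.35 ± 0.10, limma adjusted p = 0.0439). That call was lost under 13 of 19 alternatives, including the common median (-0.25, adjusted p = 0.118) and every fit without 1 ovary except those without luteal ovary 3 or follicular ovary 2. HMGB1, a chromatin protein, DNAJC18 and MICAL1, which the study listed as co-expressed with it, were lower in the luteal phase. TUCP_001262 (XLOC_221415) was at 3.00 to 5.52 and 4.95 to 7.62, with overlapping ranges, and was not called (-0.53 ± 0.18, adjusted p = 0.0738, and 0.0411 without luteal ovary 1). Its locus sum, over 3 TUCPs and 2 lncRNAs, was at 6.51 to 9.11 and 9.51 to 13.7 with groups apart (-0.56 ± 0.12, adjusted p = 0.00466). Over all 33 co-expressed genes, 32 were tested and 30 called, 12 luteal higher and 18 follicular higher, beside 43.7% of all genes (15.9% luteal, 27.8% follicular). Of the 33 pairs whose gene was called, 30 had the direction of the TUCP and 3 (KDM1A, CREM and MLYCD) the opposite. The study chose these pairs by correlation over the same ovaries, so the shared direction and the share called are not independent evidence.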

How the data were processed

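Per the study's methods, rRNA-depleted, strand-specific libraries were sequenced in pairs of reads, aligned with HISAT2, assembled with StringTie and quantified with Cuffdiff. The authors deposited the resulting FPKM, 1 value per transcript and ovary, without pooling. CNCI, CPC and Pfam-scan set the coding class. The methods describe a filter at an FPKM of 0.5, but 349 TUCPs of the deposited table are below it in all 10 ovaries. The genome build is not given in the sources used here. Read counts were not used, and low values gave no whole-read steps, so depth per ovary is unknown and precision rests on the spread between ovaries.

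Each column was matched to its ovary by phase and number. Tests used log2(FPKM + 0.1) with no other scaling. Features at 0.1 FPKM or more in at least 5 ovaries were tested, luteal minus follicular, with limma 3.58.1 (lmFit, eBayes with trend) in R 4.3.3, two-sided, with Benjamini-Hochberg adjustment over all transcripts, all genes (mRNA FPKM summed by symbol) or all loci and genes (FPKM summed by locus). The study used Cuffdiff, which needs reads. Values per ovary were compared by exact permutation and classes by exact sign tests, with scipy 1.17.1, pandas 2.3.3 and numpy 2.4.6 under Python 3.11.15, and plots drawn with matplotlib 3.10.9.

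The members, lists and tests were chosen with earlier results of these data known. Named are the 10 most abundant TUCPs, the 8 largest called changes per direction with groups apart, TUCPs the study names, up to 3 luteal-only or follicular-only TUCPs and the 3 with the largest within-phase SD. Other TUCPs and loci named (XLOC_029851, XLOC_015642, and TUCPs of the loci described) were chosen after their values were seen. Alternatives were other pseudocounts (1 and 0.01), filters and scalings, eBayes without trend, a replicate block and leaving out each ovary. In a test with a known answer, simulated noise replaced the phase difference of the tested TUCPs, and 200 of these got a known change. All other transcripts of the 32842 kept their measured values. The transcript comparison recovered 45% of the 2-fold and 73% of the 4-fold changes. Some TUCPs, their loci and some genes are not reported here, although counts of listed genes include them.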

Additional observations from a re-analysis of the deposited data

Results flagged for a closer look

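Among 70 groups of 5 ovaries (the named TUCPs and the values per ovary, by phase), 10 held an ovary far from the other 4 by Dixon's criterion at 95%, which chance alone gives in about 1 of 20 groups of normally distributed values. The FPKM here are skewed, with many listed 0s, and the TUCPs were named for large changes or spread, so the rate for such values was not computed. In the luteal phase, TUCP_000454 was at 10.2 FPKM in ovary 2 and at 1.07 to 3.21 in the others, and TUCP_000240 at 6.95 in ovary 3 and at 0.821 to 2.58 in the others. TUCP_000124 was at 0.232 in luteal ovary 1 against at most 0.0206, TUCP_001116 at 1.36 in luteal ovary 3 against 0.126 to 0.482, and TUCP_001299 at 277 in luteal ovary 3 against 0 to 64.4. In the follicular phase, TUCP_000240 was at 0.590 in ovary 1 against 0.0807 to 0.108, TUCP_001300 at 2.30 in ovary 2 against 0.277 to 0.555, and TUCP_000849 at 4.96 in ovary 2, below the 6.19 to 6.60 of the others. The remaining 2 lie near 0, with TUCP_000454 at 0.0170 in follicular ovary 4 and TUCP_000451 at 0.0136 in follicular ovary 2. Luteal ovary 3 accounts for 3 of the 10 and follicular ovary 2 for 3.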

How the results depend on the processing

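The 185 TUCP calls were 75 when 5 or more ovaries had to reach 0.5 FPKM, where 405 TUCPs were tested, 362 at an unadjusted p under 0.05, and 79 to 176 when 1 ovary was left out. The luteal share of the calls, 51.4%, was 65.1% without a filter, 64.9% with a common median, 67.7% with quantile normalization, 70.4% as TPM, and 43.2% to 67.7% without 1 ovary. Under the replicate block there were 112 calls, 67.0% of them luteal, but ovaries of equal number did not deviate together (r of -0.00976 to 0.0469, 2 of 5 luteal ovaries closest to their own number), so the numbers pair nothing. TUCP loci called, 293, were 158 at the 0.5 filter and 195 to 328 without 1 ovary. Co-located genes called were 9 as TPM. The difference in TUCPs detected per ovary, -10.0, was 4.80 at an FPKM of at least 0.1 (exact permutation p = 0.817). The luteal excess in share, 0.582 percentage points, was 0.0116 without the 10 most abundant TUCPs and 0.168 without 3 luteal-higher loci. Luteal-only TUCPs were 1 at an FPKM of at least 0.5 and 3 to 8 without 1 ovary, and follicular-only TUCPs 0 to 2. Without 1 ovary, the log2 fold change of TUCP_001376 ran from -0.050 (without follicular ovary 3 or 5) to 3.16 (without luteal ovary 1), and that of TUCP_001296 from -0.64 (without follicular ovary 2 or 4) to 3.01 (without luteal ovary 3). Apart from constructions that remove transcripts or ovaries, the cause of these changes was not tested. Locus sums, the unadjusted threshold and the removal of 3 loci were added after the data were seen. Of the named TUCPs 27 were called, and 17 of these kept the call under every alternative in which they were tested. For 6 of the 17 (TUCP_000055, TUCP_000056, TUCP_000118, TUCP_000451, TUCP_000454 and TUCP_001029) these leave out every fit without a luteal ovary, since they then failed the filter. The filter fixed the direction of these 6, and the testing of TUCP_000124 and TUCP_000963, also among the 17, rested on the follicular ovaries. For these TUCPs a call that was kept is therefore no test of the phase difference. TUCP_000398, whose testing also rested on the follicular ovaries, lost its call only under the replicate block.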
